A study of Mus musculus with 15 samples.

Results

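Ptgs2, Il6, Lif, Il11, Il33, Il1rn and Csf1 encode 6 cytokines or cytokine antagonists and an inducible prostaglandin synthase. They were taken by name as 7 of the 24015 genes counted in fibroblasts cultured from mouse embryos (MEFs), which make connective tissue, and followed through 8 groups of libraries. All cells were of the c57bl/6 strain and carried the label WT, described as Nsd2(+/+), or the label NSD2 KO, described as Nsd2(-/-), and Nsd2 encodes a histone H3 lysine 36 methyltransferase. Naive cells at 0 h had received no interferon, and naive cells at 2 h had been exposed to 100 units/ml of recombinant mouse interferon beta for 2 h. Pretreated cells had interferon for 3 h, were washed and stayed 24 h without it, and were taken then (pretreated 0 h) or after another 2 h of interferon (pretreated 2 h). Each group had 2 libraries except KO naive 2 h, which had 1. No group is labelled as handled for 2 h, or as washed, without interferon. Changes named below after interferon therefore cannot be told apart from those of its addition or removal. How the knockout was made, and whether the cells were primary or came from pooled embryos, is not given in the sources used here. The labels name no separate lines within a genotype. Loss of Nsd2 therefore cannot be told apart from other differences between the WT and KO cells.

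Interferon beta acts through a receptor that activates JAK kinases and STAT transcription factors, and the resulting antiviral genes are its best known targets. The genes described here are better known as targets of inflammatory signals. Ptgs2, also called cyclooxygenase-2, makes the precursor of all prostaglandins, and IL-6, LIF and IL-11 signal through receptor complexes that share the subunit gp130 (Il6st) and activate STAT3. IL-33 is a nuclear alarmin of the IL-1 family that signals through the receptor ST2 (Il1rl1), the product of Il1rn blocks the IL-1 receptor, and CSF-1 is the main growth factor of macrophages. Fibroblasts are a known source of several of these products, and many of their mRNAs are short-lived and turn over within hours.

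The 250 bases before the outermost RefSeq start are shown for the 6 genes that changed in WT cells on first exposure, since their start regions are what a reader would compare when the members move differently. RefSeq sequences (build GRCm38.p6, which is not the mm9 build of the counts) were matched by symbol for all 7 genes. Letters are 5′ to 3′ on the gene's strand, and capitals mark matches, on either strand, to kappaB (GGG, any 5 bases, CC), AP-1 TGANTCA, C/EBP TTGCNNAA, the short CRE core TGACG or the TATA motif TATAAA.
Ptgs2 (chr1:150099781-150100030, + strand): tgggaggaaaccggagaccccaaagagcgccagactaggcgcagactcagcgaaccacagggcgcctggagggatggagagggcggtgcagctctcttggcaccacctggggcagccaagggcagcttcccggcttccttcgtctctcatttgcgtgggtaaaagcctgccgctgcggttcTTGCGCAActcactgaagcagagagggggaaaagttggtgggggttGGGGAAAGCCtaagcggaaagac
Il6 (chr5:30012864-30013113, + strand): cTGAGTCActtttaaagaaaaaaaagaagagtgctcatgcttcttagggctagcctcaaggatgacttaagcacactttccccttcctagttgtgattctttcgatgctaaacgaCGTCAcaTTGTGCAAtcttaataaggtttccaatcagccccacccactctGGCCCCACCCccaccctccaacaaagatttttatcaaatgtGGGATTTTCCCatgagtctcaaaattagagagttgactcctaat
Lif (chr11:4257318-4257567, + strand): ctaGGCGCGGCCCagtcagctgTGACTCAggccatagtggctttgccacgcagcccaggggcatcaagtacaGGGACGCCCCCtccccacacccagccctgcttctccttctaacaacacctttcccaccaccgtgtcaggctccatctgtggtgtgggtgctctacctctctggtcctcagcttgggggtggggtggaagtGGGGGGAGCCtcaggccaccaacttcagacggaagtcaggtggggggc
Il33 (chr19:29924863-29925112, + strand): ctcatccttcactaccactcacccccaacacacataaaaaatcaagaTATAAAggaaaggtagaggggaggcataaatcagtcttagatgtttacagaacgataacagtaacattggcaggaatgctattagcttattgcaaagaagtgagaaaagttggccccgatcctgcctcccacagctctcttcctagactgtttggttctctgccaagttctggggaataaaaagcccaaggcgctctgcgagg
Il1rn (chr2:24336610-24336859, + strand): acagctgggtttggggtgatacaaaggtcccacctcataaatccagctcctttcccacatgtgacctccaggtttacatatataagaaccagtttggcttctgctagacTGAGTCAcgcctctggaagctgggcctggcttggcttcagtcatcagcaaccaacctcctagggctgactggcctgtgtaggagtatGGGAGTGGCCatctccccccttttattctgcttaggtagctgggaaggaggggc
Csf1 (chr3:107760470-107760719, - strand): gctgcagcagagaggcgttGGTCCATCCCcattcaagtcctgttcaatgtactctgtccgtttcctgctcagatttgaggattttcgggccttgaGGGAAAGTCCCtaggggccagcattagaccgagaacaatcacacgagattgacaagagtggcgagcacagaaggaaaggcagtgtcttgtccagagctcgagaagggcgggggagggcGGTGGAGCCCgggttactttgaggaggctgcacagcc
No match was found to the interferon-response core (GAAA, any 2 bases, GAAA), to the STAT site TTCNNNGAA or to the full CRE TGACGTCA, which contains the short core. Of 32851 RefSeq promoters of this length, 45.8% held a kappaB match, 6.75% an AP-1 match, 9.56% a C/EBP match, 17.8% the short CRE core, 12.4% the TATA motif, 2.98% the interferon-response core, 7.02% the STAT site and 1.55% the full CRE. The Il6 window held 3 kappaB matches, of which a pair overlapping on opposite strands lay 44 to 34 bases before the start, with a C/EBP match at 128 to 121. The Ptgs2 window held 1 kappaB match at 23 to 14 bases and a palindromic C/EBP match at 69 to 62. Lif had 5 kappaB matches, counted on both strands with overlaps, and Csf1 had 4. The Il33 window had none, and the Il1rn window had 1 beside an AP-1 match. RefSeq held 2 starts for Il33 and 3 for Il1rn, of which only the outermost is shown. The inner Il33 window held a TATA match 29 to 24 bases before its start and a C/EBP match at 85 to 78. Of the inner Il1rn windows, 1 held a kappaB match alone and the other no match. Which start these cells use was not tested. A match describes letters only, and a missing match says nothing of the factor.

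Libraries held 17170845 to 44116418 gene counts (median 28585502). The abundant transcripts Rn45s and Lars2 took 10.6% to 29.4% of them (median 25.6%), and 3 libraries were low in them (WT naive 0 h replicate 1, WT pretreated 2 h replicate 1 and KO pretreated 0 h replicate 2). Levels below are in CPM, gene counts scaled to a total of 1000000 per library, so they move with that share. Tests used TMM scaling (factors 0.895 to 1.22), and a fitted fold can therefore differ from the ratio of 2 CPM values. Whsc1, the older symbol of Nsd2, was counted in every library, at 106 to 151 CPM in WT and 91.5 to 124 CPM in KO, and was called lower in KO in all 4 conditions, by a fitted -0.18 ± 0.05 at naive 0 h (log2, SE, adjusted p = 0.0013) to -0.39 ± 0.05 at pretreated 2 h; a whole-gene count does not check a partial deletion. Summed fibroblast markers (10 genes) lay at 12165 to 19732 CPM in WT and 10507 to 13298 CPM in KO, sums carried by Col1a2, Vim and Fn1. Single fibroblast markers went apart. At naive 0 h 5 of 10 were higher and 4 lower in KO, against 34.3% and 32.7% of all genes. Lum and Thy1 passed the filter on low counts on KO libraries alone, and without them 3 of 8 were higher and 4 lower. Over all libraries Thy1 lay at 0.047 to 0.17 CPM in WT and 29.6 to 33.9 CPM in KO. Pdgfra lay at 4.49 to 7.40 against 37.7 to 124 CPM, and Dcn at 16.3 to 20.6 against 1.17 to 4.76 CPM. Macrophage and blood markers (11 of 12 matched) summed to 13.7 to 21.2 CPM in WT and 5.27 to 9.04 CPM in KO, most of it Cd14, with Emr1, Tyrobp and Cd3e at 0 in every library. The labels name no separate cultures, so the spread behind each p-value is that between libraries and may be technical.

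On first exposure of WT cells to interferon, Ptgs2, Il6, Lif, Il33 and Csf1 rose and Il1rn fell, while Il11 did not pass the test. That is 6 of 7 members called at an adjusted p below 0.05, where 30.6% of the 13802 genes tested were called in either direction. In KO cells the first exposure raised Ptgs2, Il6, Lif, Il11 and Csf1 and lowered Il1rn (6 of 7, background 36.2%), and Il33 was not called. Restimulation of pretreated cells raised Ptgs2, Il6, Lif and Csf1 in WT and lowered Il1rn (5 of 7, background 22.7%). In pretreated KO cells Ptgs2, Il6, Lif, Il11 and Csf1 rose and Il1rn fell (6 of 7, background 31.5%). The median log2 change of the 7 members on first exposure was 1.14 in WT and 1.30 in KO, against -0.02 and -0.01 over all tested genes. The members, and the pathway lists below, were chosen with earlier results of these data known. Shares set beside a background therefore describe them and do not test them. All 7 passed the filter on low counts, but Il11 was at or above its cutoff of 0.350 CPM in only 1 of 8 WT libraries against 7 of 7 KO libraries. A gene needed 1 library at the cutoff, so each of the 7 would also have passed on the WT libraries alone or on the KO libraries alone, Il11 in WT through that 1 library. Of the changes plotted for the 4 interferon contrasts, the increases of Il6 spanned the widest range.

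**Figure D1:**
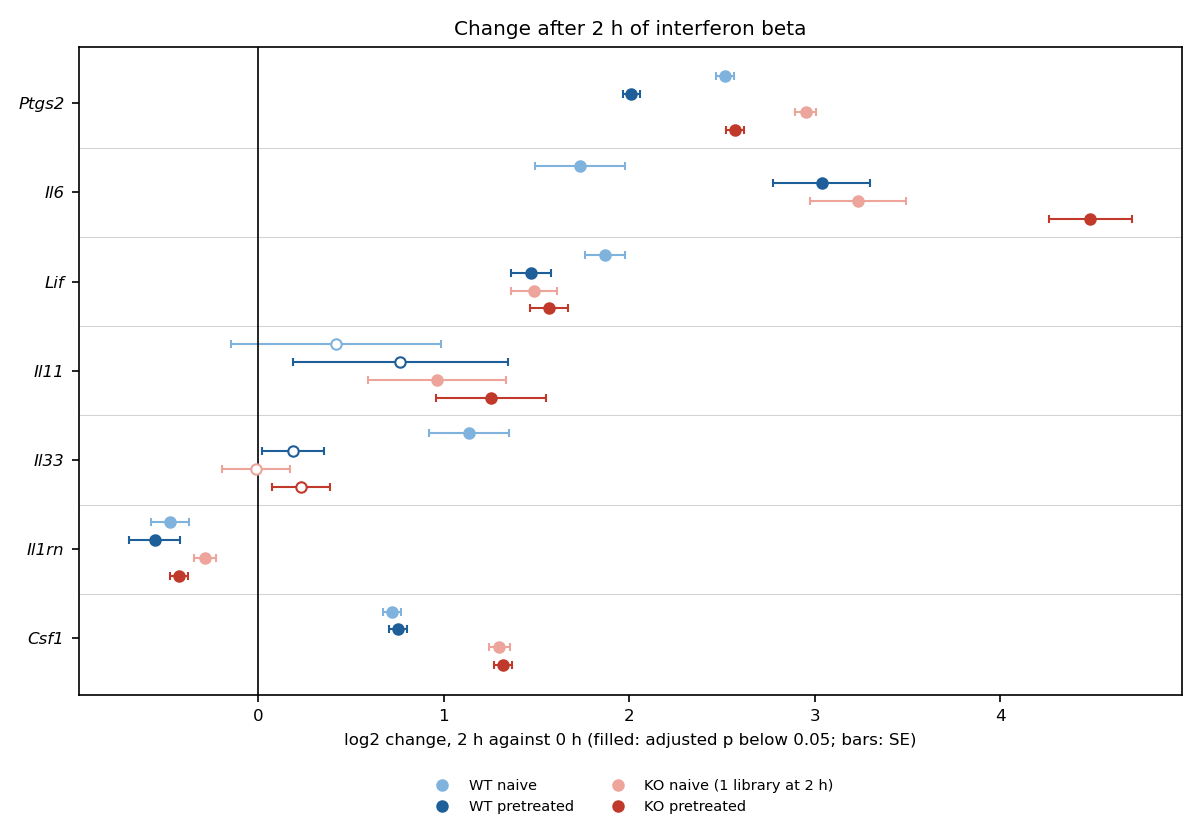
Fitted log2 changes (x axis) of the 7 genes after 2 h of interferon against 0 h, in naive and pretreated WT and KO cells. Points are estimates, bars their SE, and filled points have an adjusted p below 0.05; Il6 reaches 4.49 in pretreated KO cells, and all 4 values of Il1rn lie below 0.

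Ptgs2 was among the most abundant members and rose in every interferon contrast. Its level in WT was 142 and 120.3 CPM at naive 0 h, 634 and 641 CPM at naive 2 h, 166 and 159.8 CPM at pretreated 0 h, and 699 and 579 CPM at pretreated 2 h. In KO it was 58.1 and 56.4 CPM at naive 0 h, 381 CPM in the single naive 2 h library, 92.4 and 103 CPM at pretreated 0 h, and 543 and 496 CPM at pretreated 2 h. The 2 h libraries lay above the 0 h libraries of the same genotype without overlap, and each KO group lay below its WT counterpart without overlap.

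The first response of Ptgs2 was 2.52 ± 0.05 on the log2 scale in WT (SE, 5.72-fold, adjusted p = 2.5e-26) and 2.95 ± 0.06 in KO (7.74-fold, adjusted p = 3.7e-27). Restimulation gave 2.01 ± 0.05 in WT (4.03-fold) and 2.57 ± 0.05 in KO (5.94-fold). The gene that makes the prostaglandin precursor thus started lower and rose by a larger factor in KO. The genotype difference of the first response was 0.44 ± 0.07 (adjusted p = 6.7e-05) and that of restimulation 0.56 ± 0.06 (adjusted p = 2.0e-07). With plain library totals in place of TMM these 2 estimates were 0.46 and 0.44, and neither was called. KO was lower than WT by 1.13 ± 0.05 at naive 0 h, a level 0.457 times that of WT, by 0.69 ± 0.06 at naive 2 h, by 0.82 ± 0.05 at pretreated 0 h and by 0.26 ± 0.04 at pretreated 2 h.

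Ptgs2 was also above its naive level 24 h after the interferon was washed off. Pretreated against naive cells at 0 h differed by 0.47 ± 0.05 in WT (adjusted p = 1.4e-08) and by 0.79 ± 0.05 in KO (adjusted p = 1.4e-12). Of the 7 members, 5 were called in this comparison in WT (background 24%) and 4 in KO (background 21.7%). The genotype difference was 0.31 ± 0.07 (adjusted p = 0.0080); without KO naive 0 h replicate 2 it was 0.28 with an adjusted p of 0.080. In that genotype difference 2 of 7 members were called, against 3.22% of all genes. The increase on restimulation was smaller than on first exposure, by 0.50 ± 0.06 in WT (adjusted p = 4.7e-06) and by 0.38 ± 0.07 in KO (adjusted p = 0.0013). It was the 1 member called in either of these comparisons, for which the background was 3.04% in WT and 7.7% in KO. Wash-out, first response and their differences share the naive 0 h libraries and are not independent of each other. With plain library totals in place of TMM, the wash-out call in WT (0.31, adjusted p = 0.094) and each of these differences between responses lost its call.

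**Figure D2:**
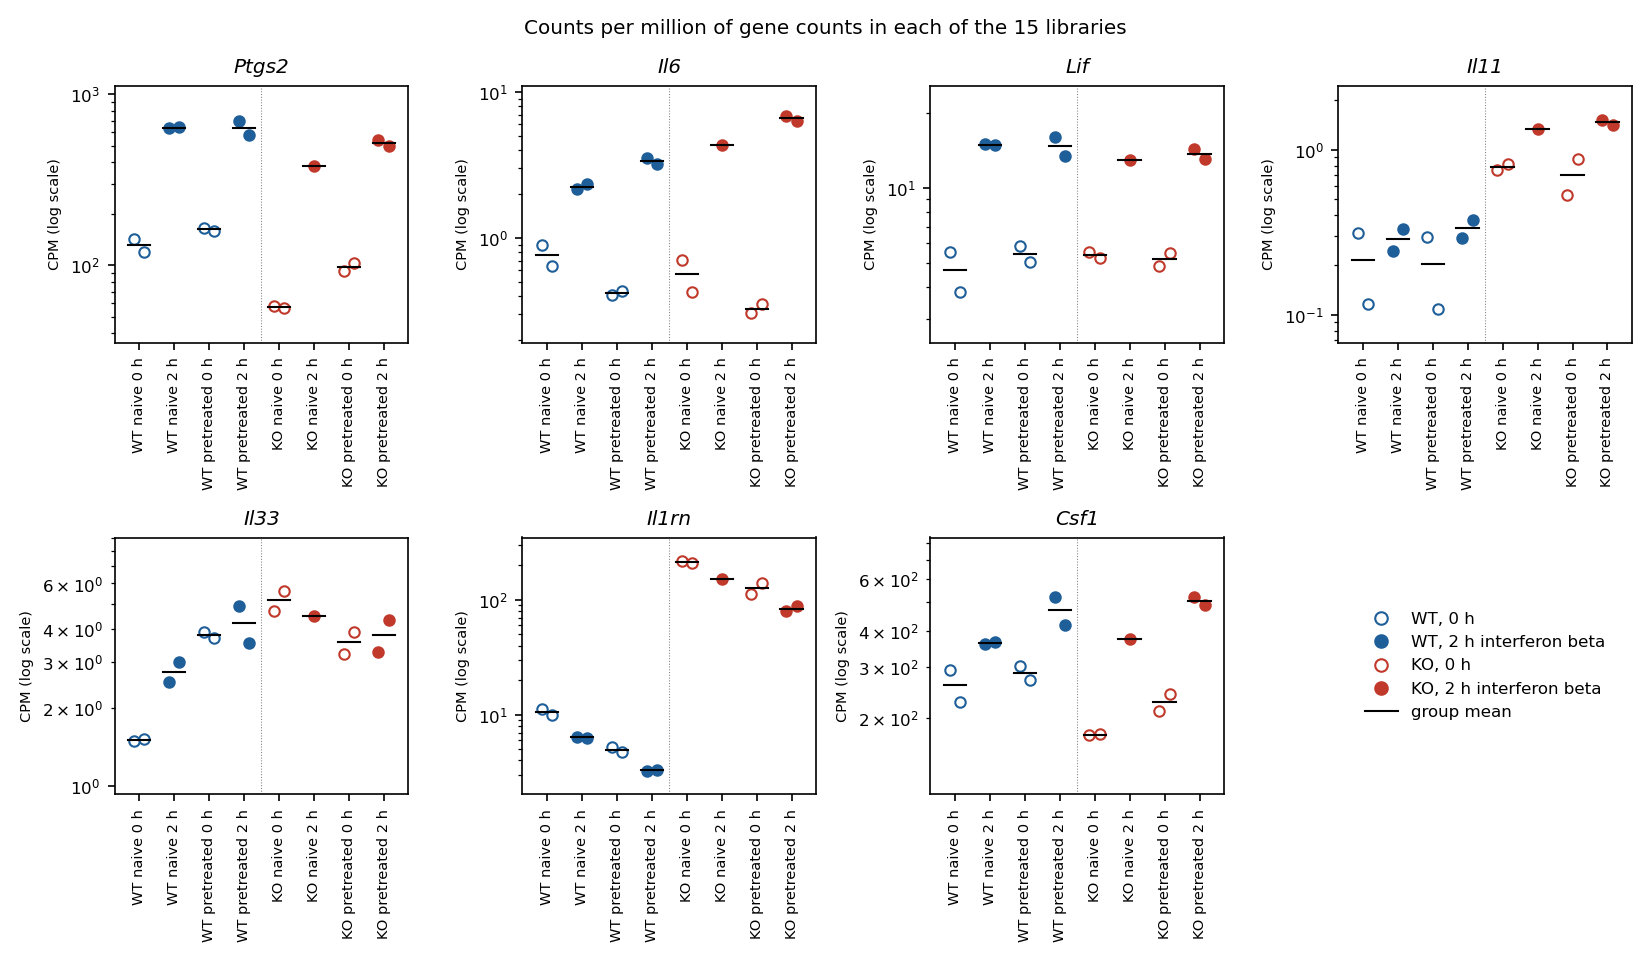
Level of each gene in every library (y axis, CPM on a log scale) in the 8 groups, 1 point per library, with a line at the group mean. The WT and KO points of Il1rn are far apart in every group, and those of Lif lie together.

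Il6 was present at few counts and rose in all interferon contrasts, and its level at 2 h was higher in KO. The gene encodes a cytokine of the acute phase response. WT libraries held 37 and 11 counts at naive 0 h (0.889 and 0.641 CPM), 71 and 49 at naive 2 h (2.147 and 2.32 CPM), 11 and 12 at pretreated 0 h (0.405 and 0.432 CPM) and 97 and 85 at pretreated 2 h (3.54 and 3.21 CPM). KO libraries held 17 and 17 counts at naive 0 h (0.709 and 0.423 CPM), 127 at naive 2 h (4.35 CPM), 11 and 10 at pretreated 0 h (0.306 and 0.350 CPM) and 303 and 185 at pretreated 2 h (6.87 and 6.37 CPM). At 2 h every KO library was above every WT library of the same pretreatment, while the naive 0 h libraries of the genotypes overlapped. At pretreated 0 h the KO libraries lay below the WT libraries, at 11 and 10 counts against 11 and 12.

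Il6 increased on first exposure by 1.73 ± 0.24 in WT (log2, SE; 3.33-fold, adjusted p = 1.5e-06) and 3.23 ± 0.26 in KO (9.41-fold, adjusted p = 1.8e-11). On restimulation the increase was 3.04 ± 0.26 in WT (8.21-fold) and 4.49 ± 0.22 in KO (22.4-fold). The same cytokine did not differ by the test between genotypes at 0 h. KO minus WT was -0.48 ± 0.32 at naive 0 h (95% interval -1.14 to 0.17) and -0.43 ± 0.42 at pretreated 0 h (-1.30 to 0.43). After 2 h KO was higher by 1.01 ± 0.21 in naive cells (adjusted p = 1.0e-04) and by 1.02 ± 0.15 in pretreated cells (adjusted p = 5.3e-07). The genotype difference of the first response was 1.50 ± 0.38 (adjusted p = 0.0059), and it was 1.35 with an adjusted p of 0.12 without WT naive 0 h replicate 1 and 1.08 with an adjusted p of 0.11 without KO naive 0 h replicate 2. For restimulation the genotype difference was 1.45 ± 0.45 (adjusted p = 0.041), a call lost in 9 of 23 alternatives, among them DESeq2 (adjusted p = 0.094). Leaving out WT pretreated 0 h replicate 1 or 2, WT pretreated 2 h replicate 1, KO pretreated 0 h replicate 1 or 2, or KO pretreated 2 h replicate 1 each ended it, with adjusted p of 0.080 to 0.18. Of the 7 members, 4 were called in the genotype difference of the first response (background 15.3%) and 3 in that of restimulation (background 9.03%).

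Il6 was numerically lower after wash-out than in naive cells, by a fitted -0.73 ± 0.35 in WT (adjusted p = 0.14) and -0.68 ± 0.39 in KO (adjusted p = 0.23), neither of which passed. Its increase on restimulation exceeded the first by 1.30 ± 0.40 in WT (adjusted p = 0.075) and 1.25 ± 0.42 in KO (adjusted p = 0.067), and these differences were not called either. The pretreated 2 h libraries nevertheless lay above the naive 2 h libraries of the same genotype, at 3.21 to 3.54 against 2.147 to 2.32 CPM in WT. This difference in level was not itself tested.

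Lif, the gene of leukaemia inhibitory factor, rose in both genotypes. WT libraries were at 5.53 and 3.84 CPM at naive 0 h, 14.996 and 14.8 CPM at naive 2 h, 5.86 and 5.04 CPM at pretreated 0 h and 16.0 and 13.4 CPM at pretreated 2 h. KO libraries were at 5.55 and 5.26 CPM, 13.0 CPM, 4.89 and 5.49 CPM, and 14.3 and 13.1 CPM in the same order. All 2 h libraries exceeded all 0 h libraries, and the genotypes overlapped in each group except naive 2 h, where the single KO library was lowest. First exposure raised Lif by 1.87 ± 0.11 in WT (log2, SE; 3.66-fold, adjusted p = 1.6e-14) and 1.49 ± 0.12 in KO (2.80-fold, adjusted p = 5.2e-11). Restimulation gave 1.47 ± 0.11 (2.77-fold) and 1.57 ± 0.10 (2.96-fold).

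The test between genotypes called Lif in none of the 4 conditions. KO minus WT was 0.23 ± 0.12 at naive 0 h with a 95% interval of -0.02 to 0.48, and -0.05 ± 0.09 at pretreated 2 h with an interval of -0.23 to 0.13. The genotype difference of the first response was -0.39 ± 0.17 (adjusted p = 0.13). After wash-out Lif was higher than in naive WT cells by 0.34 ± 0.13 (adjusted p = 0.048), a call lost in 16 of 23 alternatives. The lowest of those estimates was 0.16 with plain library totals, and leaving out WT naive 0 h replicate 1 gave 0.52 (adjusted p = 0.061). In KO the same comparison gave -0.04 ± 0.12 (95% interval -0.28 to 0.21).

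Il11, whose product acts through its own receptor chain and gp130, was the least abundant member and was higher in KO in all 4 conditions. WT libraries held 2 to 13 counts each, or 0.313 and 0.116 CPM at naive 0 h, 0.242 and 0.332 CPM at naive 2 h, 0.295 and 0.108 CPM at pretreated 0 h, and 0.292 and 0.377 CPM at pretreated 2 h. KO libraries held 18 to 67 counts, or 0.751 and 0.822 CPM at naive 0 h, 1.34 CPM at naive 2 h, 0.528 and 0.875 CPM at pretreated 0 h, and 1.52 and 1.41 CPM at pretreated 2 h. Every KO library was above every WT library. KO against WT differed by 1.76 ± 0.43 at naive 0 h (log2, SE; 3.38-fold, adjusted p = 7.7e-04), 2.30 ± 0.46 at naive 2 h (4.91-fold), 1.68 ± 0.48 at pretreated 0 h (3.20-fold, adjusted p = 0.0032) and 2.17 ± 0.36 at pretreated 2 h (4.49-fold). The size rests on few WT counts: without WT naive 0 h replicate 1 the naive 0 h value was 2.65, and without WT pretreated 0 h replicate 1 the pretreated 0 h value was 2.53. At pretreated 0 h the value without WT pretreated 0 h replicate 2 was 1.16 with an adjusted p of 0.074.

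The interferon response of Il11 passed in KO at restimulation, by 1.26 ± 0.30 (2.39-fold, adjusted p = 0.0013). On first exposure of KO it was 0.96 ± 0.37 (adjusted p = 0.043), which was lost in 6 of 22 alternatives, including the fits without KO naive 0 h replicate 1 (adjusted p = 0.10), without KO naive 0 h replicate 2 (adjusted p = 0.11) and without KO pretreated 2 h replicate 1 (adjusted p = 0.050), and with a replicate block (adjusted p = 0.053). In WT the estimates were 0.42 ± 0.57 and 0.77 ± 0.58 and neither passed. The genotype differences of 0.54 ± 0.69 and 0.49 ± 0.69 were not called, so a response that differs between genotypes was not detectable at these counts.

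Il33, the alarmin of the IL-1 family, changed in opposite directions after wash-out in the 2 genotypes. In WT it stood at 1.49 and 1.51 CPM at naive 0 h, 2.51 and 2.99 CPM at naive 2 h, 3.90 and 3.71 CPM at pretreated 0 h and 4.90 and 3.55 CPM at pretreated 2 h. In KO it was at 4.72 and 5.63 CPM at naive 0 h, 4.49 CPM at naive 2 h, 3.22 and 3.92 CPM at pretreated 0 h and 3.29 and 4.34 CPM at pretreated 2 h. The naive KO libraries all lay above the naive WT libraries, and the pretreated groups of the genotypes overlapped. These values rest on 26 to 134 counts per WT library and 112 to 226 per KO library.

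Before interferon Il33 was higher in KO by 1.92 ± 0.19 (log2, SE; 3.79-fold, adjusted p = 2.4e-10), and at naive 2 h by 0.77 ± 0.21 (1.71-fold, adjusted p = 0.0019). In pretreated cells the difference was -0.18 ± 0.17 at 0 h and -0.13 ± 0.16 at 2 h, and neither passed. After wash-out Il33 was higher than in naive cells in WT, by 1.56 ± 0.20 (2.94-fold, adjusted p = 9.0e-07). In KO it was lower, by a fitted -0.55 ± 0.15 (0.685 times the naive level, adjusted p = 0.0094). The decrease in KO lost its call without KO naive 0 h replicate 2 (-0.40, adjusted p = 0.20), without KO pretreated 0 h replicate 1 (-0.50, adjusted p = 0.080) and with DESeq2 (adjusted p = 0.077). The genotype difference of wash-out was -2.10 ± 0.25 (adjusted p = 2.3e-06) and stayed called in all 23 alternatives.

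First exposure raised Il33 in WT by 1.14 ± 0.22 (2.20-fold, adjusted p = 1.2e-04), while the KO estimate was -0.01 ± 0.18 with a 95% interval of -0.39 to 0.37. The genotype difference was -1.15 ± 0.28 (adjusted p = 0.0045), and it was -0.94 with an adjusted p of 0.093 without WT naive 0 h replicate 1. Restimulation did not pass in WT (0.19 ± 0.17) or KO (0.23 ± 0.16). In WT the restimulation was smaller than the first response by a fitted -0.95 ± 0.27, with an adjusted p of 0.052 that fell on the other side of the threshold in 5 of 23 alternatives.

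Il1rn, which encodes the IL-1 receptor antagonist, showed the largest genotype difference of the 7 genes and was the 1 member called lower after 2 h of interferon. WT libraries were at 11.2 and 9.90 CPM at naive 0 h, 6.44 and 6.26 CPM at naive 2 h, 5.19 and 4.75 CPM at pretreated 0 h, and 3.25 and 3.32 CPM at pretreated 2 h. KO libraries were at 218 and 209 CPM at naive 0 h, 151 CPM at naive 2 h, 112 and 139 CPM at pretreated 0 h, and 79.8 and 87.5 CPM at pretreated 2 h. The lowest KO library was above the highest WT library, and within each genotype the naive 0 h libraries were highest and the pretreated 2 h libraries lowest.

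KO exceeded WT by 4.42 ± 0.07 at naive 0 h (log2, SE; 21.4-fold, adjusted p = 1.4e-29), 4.61 ± 0.08 at naive 2 h (24.5-fold), 4.57 ± 0.08 at pretreated 0 h (23.8-fold) and 4.71 ± 0.08 at pretreated 2 h (26.1-fold). At naive 0 h 5 of the 7 members were called in either direction, against 67.1% of all genes tested. The counts were 5 at naive 2 h (background 61.2%), 4 at pretreated 0 h (background 64.7%) and 5 at pretreated 2 h (background 66.3%), shares near the backgrounds. Macrophages are a known source of the receptor antagonist, and the summed macrophage and blood markers were lower in the KO libraries (5.27 to 9.04 CPM) than in the WT libraries (13.7 to 21.2 CPM), with Emr1 and Tyrobp at 0. Cd14 alone made up most of that sum, at a median of 12.5 CPM in WT and 5.004 CPM in KO, while Lyz2 had a median of 0.498 CPM in WT and 0.560 CPM in KO. The part of these markers in the level of Il1rn was not tested. Fewer cells of a type and less RNA per cell cannot be told apart in bulk libraries.

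First exposure lowered Il1rn by a fitted -0.48 ± 0.10 in WT (0.719 times, adjusted p = 5.0e-04) and -0.29 ± 0.06 in KO (0.820 times, adjusted p = 3.7e-04). Restimulation gave -0.56 ± 0.14 in WT (adjusted p = 0.0029) and -0.43 ± 0.05 in KO (adjusted p = 4.9e-08). The WT restimulation value was -0.43 with an adjusted p of 0.088 without WT pretreated 2 h replicate 1. After wash-out Il1rn was below its naive level by -0.91 ± 0.11 in WT (0.534 times, adjusted p = 1.9e-07) and -0.75 ± 0.05 in KO (0.593 times, adjusted p = 1.5e-12). No genotype difference of these 3 changes was called, with estimates of 0.19 ± 0.12, 0.13 ± 0.15 and 0.15 ± 0.12.

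**Figure D3:**
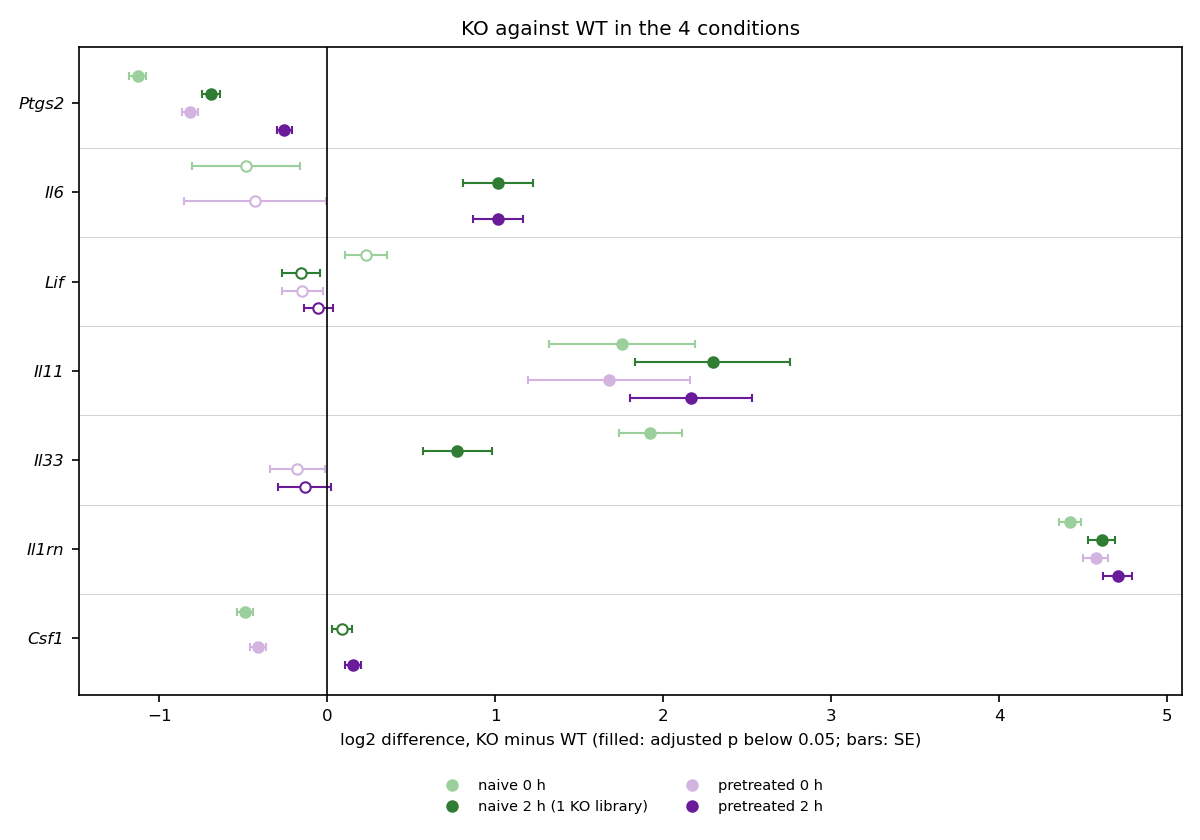
Fitted log2 difference of KO minus WT (x axis) for the 7 genes at naive 0 h, naive 2 h, pretreated 0 h and pretreated 2 h. Points are estimates, bars their SE, and filled points have an adjusted p below 0.05; Il1rn lies above 4 in all conditions, and Il6 and Csf1 move from below 0 at 0 h to above 0 at 2 h.

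Csf1, the macrophage growth factor gene, was abundant in all libraries, started lower in KO and rose by a larger factor there. WT libraries were at 293 and 227 CPM at naive 0 h, 360.3 and 366 CPM at naive 2 h, 302 and 269 CPM at pretreated 0 h, and 520.1 and 419 CPM at pretreated 2 h. KO libraries were at 175 and 176 CPM at naive 0 h, 373 CPM at naive 2 h, 212 and 242 CPM at pretreated 0 h, and 522 and 491 CPM at pretreated 2 h. At 0 h the KO libraries lay below the WT libraries of the same pretreatment with no overlap, and the pretreated 2 h libraries of the genotypes overlapped.

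First exposure raised Csf1 by 0.72 ± 0.05 in WT (log2, SE; 1.65-fold, adjusted p = 3.9e-13) and 1.30 ± 0.06 in KO (2.46-fold, adjusted p = 6.0e-18). Restimulation gave 0.75 ± 0.05 (1.69-fold) and 1.32 ± 0.05 (2.497-fold). The genotype difference was 0.58 ± 0.07 for the first response (adjusted p = 8.2e-07) and 0.57 ± 0.07 for restimulation (adjusted p = 2.3e-07). With plain library totals the same estimates were 0.61 (adjusted p = 0.053) and 0.44 (adjusted p = 0.28). KO was lower by 0.49 ± 0.05 at naive 0 h and by 0.41 ± 0.05 at pretreated 0 h. At 2 h KO minus WT was 0.09 ± 0.06 in naive cells (95% interval -0.03 to 0.20) and 0.15 ± 0.05 in pretreated cells (adjusted p = 0.0046). The last value was 0.10 with an adjusted p of 0.097 without WT pretreated 2 h replicate 2 and 0.099 with an adjusted p of 0.12 without KO pretreated 2 h replicate 1.

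Csf1 was above its naive level 24 h after wash-out, by 0.30 ± 0.05 in WT (1.23-fold, adjusted p = 1.9e-05) and 0.38 ± 0.05 in KO (1.30-fold, adjusted p = 7.7e-07). The genotype difference of 0.08 ± 0.07 was not called. Restimulation and first response of Csf1 differed by 0.03 ± 0.07 in WT (95% interval -0.10 to 0.17) and 0.02 ± 0.07 in KO (-0.13 to 0.17). With plain library totals the wash-out values were 0.14 (adjusted p = 0.50) and 0.37 (adjusted p = 0.072).

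**Figure D4:**
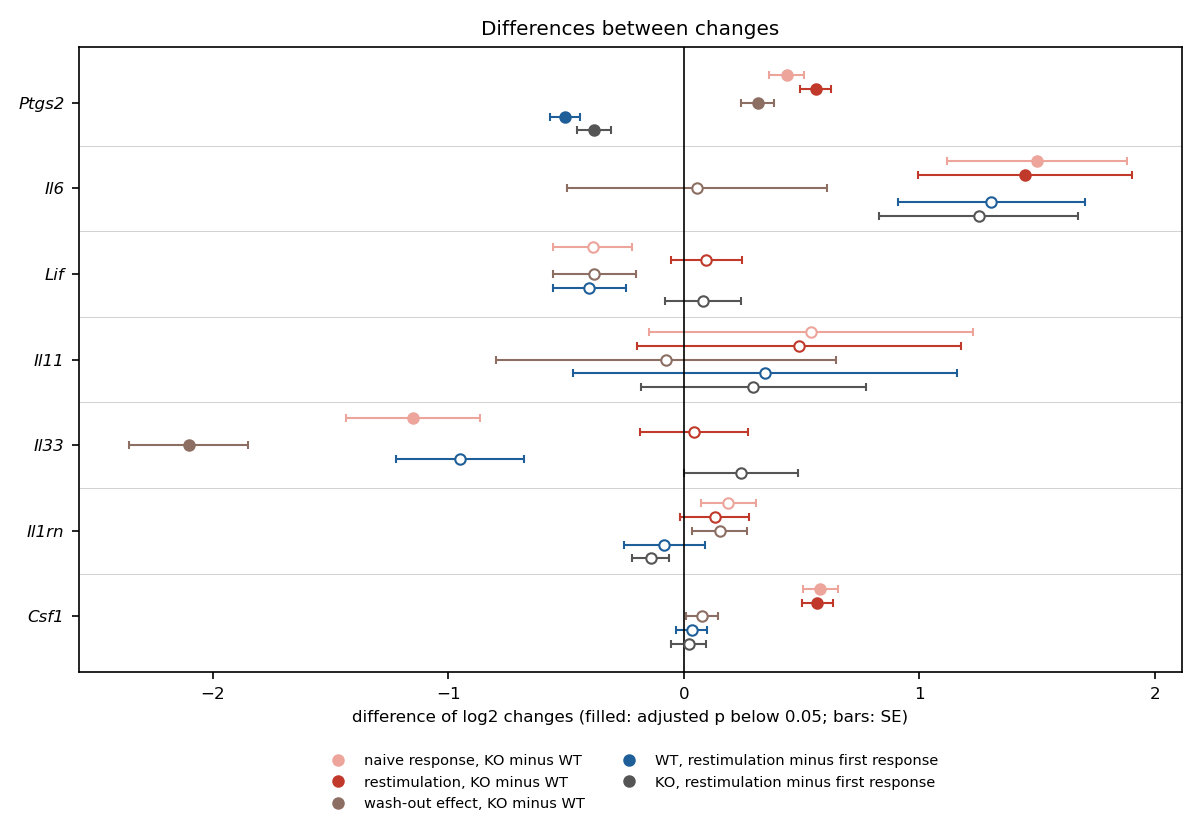
Fitted log2 differences between changes (x axis) for the 7 genes: the genotype differences of the first response, of restimulation and of wash-out, and restimulation against first response in each genotype. Bars are SE and filled points have an adjusted p below 0.05; the largest is the wash-out difference of Il33 at -2.10, and Ptgs2 is the gene called in all 5.

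Per kilobase of exon (union of GENCODE M21 exons, 2.08 kb for Il11 to 5.54 kb for Il1rn), levels of the members could be set beside each other. In naive WT cells at 0 h Csf1 was highest at 49.2 ± 8.81 CPM per kb (SD, n = 2), followed by Ptgs2 at 28.7 ± 3.40. Il1rn at 1.91 ± 0.17 and Lif at 1.08 ± 0.27 CPM per kb came next. Il33 at 0.521 ± 0.006, Il6 at 0.315 ± 0.072 and Il11 at 0.103 ± 0.067 CPM per kb were the lowest, each separated from its neighbour by more than the SDs. After 2 h of interferon in naive WT cells the order of the first 2 was exchanged, with Ptgs2 at 139 ± 1.01 and Csf1 at 68.8 ± 0.77 CPM per kb. In naive KO cells at 0 h Il1rn was the most abundant of the 7 at 38.6 ± 1.03, above Csf1 at 33.3 ± 0.14 and Ptgs2 at 12.5 ± 0.27 CPM per kb. At pretreated 2 h in KO the order was Ptgs2 at 113 ± 7.14, Csf1 at 95.9 ± 4.17 and Il1rn at 15.1 ± 0.99 CPM per kb.

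Across the 15 libraries, which share depth and treatment structure, Ptgs2, Il6, Lif and Csf1 varied together and Il1rn did not follow them. Pearson's r of log2 CPM was 0.958 for Ptgs2 with Csf1, 0.936 for Ptgs2 with Lif, 0.911 for Il6 with Lif and 0.869 for Ptgs2 with Il6. It was -0.446 for Ptgs2 with Il1rn and 0.791 for Il11 with Il1rn. Among about 11682 other tested genes with a mean of at least 1 CPM, the profiles most like Ptgs2 were those of Plaur (r = 0.993), Itga5 (0.993) and Klf6 (0.991). Arid5a (0.983), Fam46a (0.969) and Gcnt2 (0.962) were nearest to Il6, and Itprip (0.987), Tbc1d1 (0.986) and Ctgf (0.984) to Lif. Mafk (0.981), Ascc3 (0.980) and Cyr61 (0.978) were nearest to Csf1. Emb, Sntb2 and Mgam each reached 0.996 with Il1rn, and Nod1 (0.979), Traf5 (0.971) and Lrch3 (0.968) were nearest to Il11. Il33 had no profile as close, with Msmo1 at 0.867, Tm4sf1 at 0.853 and Cenpa at 0.847. These are descriptions over libraries of 8 groups and carry no test.

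The receptor side of the IL-6 family differed strongly between genotypes. Of 17 tested genes of IL-6 family ligands, receptors and signalling (19 listed, the 3 members included), 11 were higher and 2 lower in KO at naive 0 h, where 34.3% and 32.7% of all genes were called higher and lower, with a median of 0.34 against 0.01 over all genes. Lifr, the LIF receptor chain, was at 0.897 ± 0.214 CPM in WT (SD, n = 2) and 41.1 ± 1.67 CPM in KO, a difference of 5.74 ± 0.13 (log2, SE). Osmr, which pairs with gp130 for oncostatin M, was at 28.8 ± 4.20 against 98.7 ± 3.21 CPM, and Socs3, a feedback inhibitor of the pathway, at 9.48 ± 1.79 against 36.5 ± 0.16 CPM. Il11ra1 was higher in KO by 1.22 ± 0.10 and Il6ra by 0.66 ± 0.14, while gp130 (Il6st) was lower by 0.29 ± 0.04. Tyk2, a kinase of the pathway, was higher by 1.13 ± 0.07. On first exposure of WT cells 7 of the 17 rose and 1 fell, where 15% and 15.6% of all genes rose and fell. Those that rose included Clcf1 (1.44 ± 0.09), Socs3 (0.48 ± 0.10), Osmr (0.46 ± 0.06) and Stat3 (0.45 ± 0.06). In KO cells 7 rose and 1 fell on first exposure, where 19.1% and 17.2% of all genes did so.

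Several genes around Ptgs2 in the synthesis, transport and reception of prostanoids were higher in KO, whereas Ptgs2 itself was lower. Of 17 tested genes (23 listed, Ptgs2 included), 12 were higher and 3 lower in KO at naive 0 h, against 34.3% and 32.7% of all genes. Ptgds, Ptgfr and Ptgir passed the filter on KO libraries alone, and without them 9 of 14 were higher and 3 lower. Ptgs1, the constitutive cyclooxygenase, was at 9.32 ± 1.40 CPM in WT and 91.4 ± 3.66 CPM in KO (SD, n = 2), a difference of 3.36 ± 0.07 (log2, SE). Ptges, a prostaglandin E synthase, was at 1.10 ± 0.34 against 18.1 ± 1.32 CPM, and Ptgis, the prostacyclin synthase, at 0.341 ± 0.176 against 49.1 ± 0.03 CPM. Cbr1, a carbonyl reductase that acts on prostaglandins, stood at 1.38 ± 0.56 against 17.2 ± 0.07 CPM. On first exposure of WT cells 4 of the 17 rose and 2 fell, shares near the 15% and 15.6% of all genes. Ptger4, a receptor for prostaglandin E2, went from 4.19 ± 2.06 to 16.7 ± 0.86 CPM in WT (2.11 ± 0.13) and from 9.42 ± 0.45 to 10.1 CPM in KO (0.31 ± 0.15, adjusted p = 0.10), with a genotype difference of -1.81 ± 0.20 (adjusted p = 3.6e-08). Ptgs1 (0.52 ± 0.09) and Ptges3 (0.12 ± 0.04) rose in WT, and Ptgfr had 10 counts over both naive 0 h WT libraries and 0 at 2 h. Ptger1 was at 12.4 ± 2.42 CPM in WT and 15.2 ± 0.996 CPM in KO at naive 0 h, and Ptger2 and Ptger3 had at most 16 counts in any group.

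The IL-1 family and its signalling gave 16 tested genes (24 listed, 23 matched), the members Il1rn and Il33 included. Of the 16, 6 were higher and 4 lower in KO at naive 0 h, a share near the background of 67.1% for either direction. Irak3 passed the filter on KO libraries alone and Sigirr on WT libraries alone, and without them 5 of 14 were higher and 4 lower. Il1r1, the receptor that the product of Il1rn blocks, was at 6.37 ± 1.84 CPM in WT and 28.3 ± 0.45 CPM in KO (SD, n = 2), a difference of 2.18 ± 0.09 (log2, SE). The agonist Il1b had no count in any library and Il1a at most 3 in a group. Irak3, an inhibitor of IL-1 receptor signalling, had 373 counts over the KO naive 0 h libraries and 0 over those of WT. Il18 was lower in KO, at 0.146 ± 0.030 against 1.87 ± 0.34 CPM, and Il18rap, a subunit of its receptor, was higher by 1.59 ± 0.10. Il1rl1, the receptor of IL-33, rose on first exposure by 0.93 ± 0.06 in WT and 0.88 ± 0.08 in KO. After wash-out it was above its naive level by 0.22 ± 0.06 in WT and 1.03 ± 0.06 in KO. On first exposure 6 of the 16 rose and 1 fell in WT (15% and 15.6% of all genes), and 8 rose and 2 fell in KO (19.1% and 17.2%). Il1r1 (0.67 ± 0.11), Irak2 (0.58 ± 0.07) and Myd88 (0.36 ± 0.07) were among those that rose in WT.

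**Figure D5:**
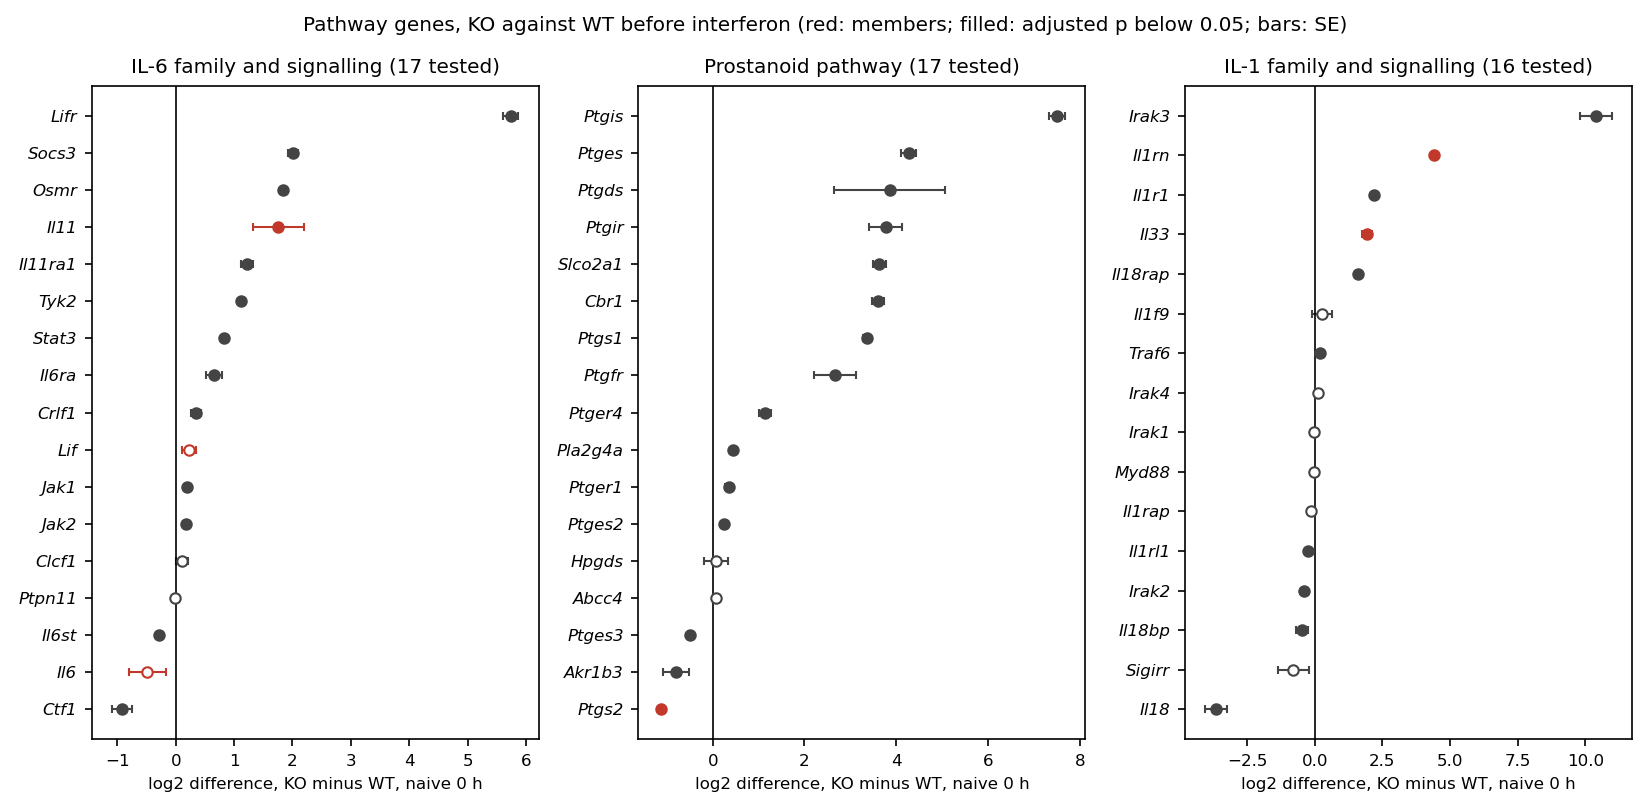
Fitted log2 difference of KO minus WT at naive 0 h (x axis) for the tested genes of the pathway lists, with SE bars, filled points for an adjusted p below 0.05 and members in red. Irak3 had no count in WT naive 0 h, so its fitted value depends on the prior count. Lifr, Ptgis, Ptges, Cbr1 and Ptgs1 are among the genes above 3.

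Only 4 of 8 colony-stimulating factors and receptors were tested, and 3 were lower in KO at naive 0 h, where 32.7% of all genes were. The other, Csf3r, passed the filter on KO libraries alone. Besides Csf1 those lower were Il34, the other ligand of the CSF-1 receptor, at 2.79 ± 0.005 CPM in KO against 7.91 ± 1.46 CPM in WT (SD, n = 2), and the receptor Csf1r at 0.245 ± 0.111 against 1.67 ± 0.05 CPM. Csf1r, which is also one of the macrophage markers, had 4 to 13 counts per KO library and 24 to 71 per WT library. Csf1 was the 1 gene of the 4 that rose on first exposure in either genotype.

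Target genes of STAT3, the factor that IL-6, LIF and IL-11 activate, rose on first exposure in 10 of 15 cases in WT and fell in 1, with a median change of 0.61 against -0.02 over all genes, of which 15% rose and 15.6% fell. In KO 5 rose and 1 fell, with a median of 0.10 against -0.01, where 19.1% and 17.2% of all genes did. Cebpd went from 9.78 ± 1.15 to 21.4 ± 0.78 CPM in WT (SD, n = 2) and from 23.6 ± 2.29 to 20.95 CPM in KO, a genotype difference of -1.34 ± 0.15 (log2, SE; adjusted p = 4.0e-08). Mcl1, a survival factor, rose by 0.61 ± 0.05 in WT and gave 0.10 ± 0.06 in KO (genotype difference -0.51 ± 0.08, adjusted p = 9.8e-06). Junb rose in both, by 1.32 ± 0.06 and 1.60 ± 0.07, and Myc by 0.61 ± 0.06 and 0.83 ± 0.08. The genotype difference of the first response was called higher for 1 of the 15 and lower for 5, where 8.46% and 6.85% of all genes were called. Before interferon 7 were higher and 6 lower in KO (34.3% and 32.7% of all genes), one of the latter being Fgl1, which passed the filter on WT libraries alone. Those called included Stat3 (0.83 ± 0.06), Myc (-0.94 ± 0.06) and Ccnd1 (-0.68 ± 0.04).

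Among 12 factors that destroy or stabilise cytokine mRNAs, such as Il6 and Ptgs2, 5 rose and 2 fell on first exposure in WT (15% and 15.6% of all genes), and 6 rose and 1 fell in KO (19.1% and 17.2%). Zfp36l2 and Zfp36, which promote decay of AU-rich mRNAs, rose in WT by 1.38 ± 0.06 and 0.84 ± 0.11 and in KO by 0.89 ± 0.06 and 1.87 ± 0.12 (log2, SE). The genotype difference was -0.49 ± 0.08 for Zfp36l2 (adjusted p = 1.0e-04) and 1.03 ± 0.16 for Zfp36 (adjusted p = 2.4e-05). Arid5a, which stabilises Il6 mRNA, went from 8.03 ± 1.15 to 17.1 ± 0.01 CPM in WT (SD, n = 2) and from 6.97 ± 0.06 to 19.3 CPM in KO. Its increases were 1.32 ± 0.09 and 1.69 ± 0.10, with a genotype difference of 0.36 ± 0.14 (adjusted p = 0.074). Rc3h1, a factor that recognises stem-loops in mRNAs, rose by 0.50 ± 0.05 in WT and 0.53 ± 0.06 in KO. Before interferon 4 of the 12 were higher and 2 lower in KO, a smaller share than the 67.1% of all genes called in either direction. Those lower included Tial1 (-0.56 ± 0.06).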

How the data were processed

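RNA of 15 libraries in 8 groups was sequenced in pairs of reads, per the labels' protocols. The authors deposited raw counts per gene symbol; bcl2fastq 2.15, STAR 2.5.2b, HTSeq and mm9 are named in the submitters' processing notes. The sources used here name no annotation and no strand setting. The 5 HTSeq summary lines, with 35.1% to 41.3% of uniquely aligned reads in no gene, were left out.

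From these counts, CPM of gene counts were computed, and edgeR 4.0.16 (R 4.3.3) tested them: TMM, filterByExpr with a minimum count of 10, quasi-likelihood testing with 1 coefficient for each of 8 groups (7 residual degrees of freedom) and Benjamini-Hochberg adjustment over 13802 genes, called below 0.05. The single KO naive 2 h library was taken to spread as the pairs do, and intervals use the t quantile of each fit. The steps were tested on simulated data. Replicates differed beyond counting error (chi-square 3.16 to 137 per degree of freedom, and 1.77 to 4.10 without Rn45s and Lars2). The members and lists were chosen with earlier results of these data known. The named pathway genes are up to 4 per list with the smallest p in 2 comparisons, and receptors. Alternatives were other scalings, no filter, DESeq2 1.42.0, other library and gene sets, and a replicate block. Figures used matplotlib 3.10.9.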

Additional observations from a re-analysis of the deposited data

Results flagged for a closer look

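These are changes that differed between genotypes, or between first and second exposure, in a test of the difference itself in the model of all 15 libraries (log2 ± SE, edgeR's quasi-likelihood test). In the first response, KO minus WT was 0.436 ± 0.074 for Ptgs2, 1.50 ± 0.38 for Il6 and 0.580 ± 0.074 for Csf1, and -1.15 ± 0.28 for Il33, which rose in WT and was not called in KO. These 4 rest on 1 KO library at naive 2 h. In restimulation the values were 0.559 ± 0.065 for Ptgs2, 1.45 ± 0.45 for Il6 (adjusted p = 0.041) and 0.567 ± 0.066 for Csf1. In wash-out they were 0.314 ± 0.070 for Ptgs2 and -2.10 ± 0.25 for Il33. The restimulation of Ptgs2 differed from its first response by -0.504 ± 0.065 in WT and by -0.381 ± 0.074 in KO. No group has more than 2 libraries, so no library could be tested as standing apart within its group.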

How the results depend on the processing

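Of 105 member results (7 genes in 15 comparisons), 62 were called, and by comparison 3.04% to 67.1% of all genes were. Of these 62 calls, 43 held in every alternative run. No called value changed direction in any of them. Of the 19 calls lost somewhere, 10 were lost in an alternative other than plain library totals, which put no correction on the share of Rn45s and Lars2. That scaling moved the median log2 change of all genes, for example from -0.02 to -0.27 in the first response of WT, and from -0.00 to -0.18 in its wash-out. It also moved the share of calls that were higher: from 48.9% to 10.5% (WT first response), 52.6% to 22.0% (KO first response), 56.9% to 32.9% (KO restimulation), 52.4% to 8.52% (WT wash-out), 51.2% to 39.1% (KO wash-out), 55.2% to 76.3% and 53.0% to 86.7% (genotype differences of the first response and of wash-out), and 53.6% to 95.6% and 61.8% to 32.9% (restimulation against first response in WT and KO).

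With plain library totals 2 members were called in the wash-out of WT, 2 in that of KO, 2 in the genotype difference of the first response, 0 in that of restimulation and 1 in that of wash-out, and 0 in restimulation against first response in either genotype. The genotype difference of the first response had 2 called members without the 3 libraries low in Rn45s and Lars2, and 2 to 4 when single libraries were left out (lowest without WT naive 0 h replicate 1). That of wash-out had 1 to 2 (lowest without KO naive 0 h replicate 2). Restimulation against first response in WT had 2 called members with RLE size factors, 3 with no filter and 1 to 2 when single libraries were left out, since Il33 and Il6 lay near the threshold. Why the other counts moved was not tested. These counts are given without the share of all genes called in the same run. They therefore do not show whether the members moved apart from other genes.

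Values that changed sign were uncalled before and after. The first response of Il33 in KO was 0.0645 with the replicate block, 0.00147 without Rn45s and Lars2 and 0.00202 with DESeq2. Without the 3 low libraries, Il11 gave 0.779 in the wash-out of WT, -0.367 in the genotype difference of the first response and -0.282 in restimulation against first response in WT, where Il1rn gave 0.0949 and Csf1 -0.0829, and Il6 gave -0.0830 in the genotype difference of wash-out. With plain library totals the genotype differences were -0.0256 for Lif and -0.0683 for Il33 in restimulation and 0.117 for Il11 in wash-out, and Il1rn gave 0.146 in restimulation against first response in WT. Leaving out single libraries gave -0.107 to 0.132 for Il33 in the first response of KO, -0.962 to 0.779 for Il11 in the wash-out of WT, and -0.0916 to 0.0036 for Lif and -0.472 to 0.0586 for Il11 in that of KO. KO against WT at pretreated 2 h ranged from -0.137 to 0.0127 for Lif and from -0.310 to 0.0711 for Il33. The genotype differences ranged from -0.354 to 0.765 for Il11 in the first response; from -0.0186 to 0.174 for Lif, -0.381 to 1.01 for Il11 and -0.133 to 0.249 for Il33 in restimulation; and from -0.367 to 0.388 for Il6 and -0.972 to 0.778 for Il11 in wash-out. Restimulation against first response ranged in WT from -0.549 to 1.19 for Il11, -0.199 to 0.0417 for Il1rn and -0.0214 to 0.0919 for Csf1, and in KO from -0.00223 to 0.147 for Lif and -0.0344 to 0.0722 for Csf1.

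Replicate numbers are shared across groups, but same-numbered libraries did not deviate together (r of -0.018 to 0.064 over 21 pairs of groups), so the numbers are not shown to pair samples. With the replicate block the first response of Il11 in KO lost its call (0.983, adjusted p = 0.053), and the genotype difference of the first response of Lif gained one (-0.454, adjusted p = 0.046). DESeq2 gave an adjusted p for 96 of 105 results. Low counts limit Il11 and Il6.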
